A study of Rattus norvegicus with 3 samples.

Results

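The genes described here are 4 hepatic cytochrome P450 genes, Cyp2e1 (ENSRNOG00000012458), Cyp1a2 (ENSRNOG00000016173), Cyp1a1 (ENSRNOG00000019500) and Cyp7a1 (ENSRNOG00000009488). They were chosen by identifier from the 26404 gene identifiers of the deposited count files. The files give no gene names. The names came with the choice of genes and could not be checked, because 0 of the identifiers matched the reference gene table, which lists all 4 symbols without Ensembl identifiers.

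RNA of adult rat liver was sequenced in 3 libraries. The healthy library came from untreated animals, the saline library from animals given 1 ml of saline, and the etanercept library from animals given etanercept at 9 mg/kg in 1 ml, 16 to 18 hours ahead of the operation. Both treated groups underwent partial hepatectomy, the surgical removal of much of the liver, after which the remnant regrows, and their livers were taken 32 hours later. Etanercept is a fusion protein that binds tumour necrosis factor (TNF) and keeps it from its receptors. RNA of 3 rats was pooled per group before sequencing, so each group is 1 library, no spread between animals can be estimated, and no test or p-value is given. Intervals are 95% intervals for counting error alone. No sham-operated library was included, so regrowth, surgery and saline cannot be told apart in the comparison with healthy liver.

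Cytochromes P450 are haem enzymes, most of them in the endoplasmic reticulum, that oxidise drugs, toxins, steroids and bile acid precursors. Hepatocytes hold most of the liver's P450, and several of these genes, Cyp2e1 and Cyp1a2 among them, are expressed mainly around the central vein. Inflammatory cytokines such as TNF and interleukin-6 are known to lower the expression of many hepatic P450 genes. In bulk liver, fewer hepatocytes and less RNA per hepatocyte cannot be told apart.

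The 4 genes differed in how they moved across the libraries. Cyp2e1 was 1.63-fold lower in the saline than in the healthy library and, with the TMM scaling used throughout, stood at almost the same level in the etanercept library. That match depended on the scaling: the log2 fold of etanercept over saline was -0.44 with total gene reads and -2.33 with all uniquely aligned reads. Cyp1a2 was 1.29-fold lower after saline, a direction that depended on the scaling of the libraries, whereas with etanercept it was 5.46-fold below saline. Cyp7a1 was also lower in the etanercept library, by 2.57-fold, and Cyp1a1 was barely detected anywhere.

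The 250 bases before the annotated start are shown for Cyp2e1 and Cyp1a2, the most-read members, whose levels parted in the etanercept library. Both are from RefSeq, build GRCr8, read 5′ to 3′ on the gene's strand: chr1:205269717-205269966 on the plus strand for Cyp2e1 and chr8:66978150-66978399 on the minus strand for Cyp1a2. Capitals mark a TATA box core (TATAAA) or a CCAAT box (CCAAT, or ATTGG on the other strand).
Cyp2e1: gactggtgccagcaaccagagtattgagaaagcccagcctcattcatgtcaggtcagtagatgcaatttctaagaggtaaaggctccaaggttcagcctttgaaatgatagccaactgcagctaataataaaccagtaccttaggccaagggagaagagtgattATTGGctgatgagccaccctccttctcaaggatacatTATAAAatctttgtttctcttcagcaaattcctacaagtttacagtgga
Cyp1a2: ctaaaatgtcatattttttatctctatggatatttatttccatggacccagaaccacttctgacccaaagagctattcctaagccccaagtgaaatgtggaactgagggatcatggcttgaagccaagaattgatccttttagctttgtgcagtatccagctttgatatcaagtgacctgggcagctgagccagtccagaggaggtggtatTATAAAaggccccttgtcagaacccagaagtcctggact

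Both windows hold a TATA box core, from 49 to 44 bases before the start of Cyp2e1 and from 39 to 34 bases before that of Cyp1a2. Searched on both strands, this motif was in 12.9% of the 33469 RefSeq promoter windows of the same length. The CCAAT box, found in 34.0% of them, was in the Cyp2e1 window on the opposite strand, from 86 to 82 bases before the start. The core of the aryl hydrocarbon receptor (AHR) response element (GCGTG, or CACGC on the other strand), found in 25.9%, is not among the letters of either window. The motifs do not overlap one another. The promoter table lists no entry for Cyp1a1 or Cyp7a1.

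Gene reads numbered 5993834 in the healthy, 2645152 in the saline and 3639886 in the etanercept library. Levels are CPM, the counts per 1000000 reads after TMM scaling, which sets the libraries to a common level by a trimmed mean of log ratios. Levels of different genes are not compared, because transcript lengths were not used. Of uniquely aligned reads, 77.4% lay outside genes with etanercept, against 19.9% in healthy and 21.7% in saline liver, and the part of this difference in the results below was not tested.

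Cyp2e1 encodes the P450 that oxidises ethanol, acetone and other small molecules and that activates paracetamol to its toxic product. It had 12633 reads (2352 CPM, interval 2311 to 2393) in the healthy library, 4667 reads (1442 CPM, 1401 to 1484) in the saline library and 4727 reads (1424 CPM, 1383 to 1465) in the etanercept library. The healthy library was highest, and the intervals of both hepatectomy libraries overlapped. Cyp2e1 was thus 1.63-fold lower in saline than in healthy (interval 1.58 to 1.69) and 1.65-fold lower in etanercept than in healthy (1.60 to 1.71). Etanercept over saline gave 0.987 (0.948 to 1.03). As a share of gene reads, which involves no TMM factor, Cyp2e1 took 0.211% in the healthy, 0.176% in the saline and 0.130% in the etanercept library, so on this scale the etanercept library lay below saline.

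Cyp1a2 encodes the liver's constitutive CYP1A enzyme, which metabolises caffeine and activates aromatic and heterocyclic amines. It had 3685 reads (686 CPM, interval 664 to 709) in the healthy, 1727 reads (534 CPM, 509 to 560) in the saline and 324 reads (97.6 CPM, 87.2 to 109) in the etanercept library. No 2 of these intervals overlapped, and the etanercept library stood far below the other two. The level was 5.46-fold lower in etanercept than in saline (4.85 to 6.18) and 7.02-fold lower than in healthy (6.27 to 7.90). Between saline and healthy it was 1.29-fold lower (1.21 to 1.36) with TMM, but scaling by total gene reads turned this direction, with a log2 fold of 0.087 in place of -0.36. Its share of gene reads was 0.0615%, 0.0653% and 0.00890% in the healthy, saline and etanercept libraries.

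Cyp1a1, the sister gene of Cyp1a2 and the classic AHR target, is little expressed in liver until an inducer such as dioxin or a polycyclic hydrocarbon is given. In the reference gene table it neighbours Cyp1a2 on chromosome 8, with 0 listed genes lying between. Cyp1a1 had 7 reads in the healthy library (1.30 CPM, interval 0.524 to 2.69), 7 in the saline library (2.16 CPM, 0.870 to 4.46) and 0 in the etanercept library. A count of 0 there allows a level of up to 3 counts, or 0.904 CPM. With counting error in both libraries, the interval of the etanercept to saline ratio reached up to 0.676, below 1, and that of etanercept to healthy up to 1.12. The ratio of saline to healthy was 1.66 with an interval of 0.497 to 5.55. Neither difference from healthy liver was detectable at this depth. CYP1A genes are similar in sequence, and reads aligned to several places were not counted for any gene, so both may be undercounted.

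Cyp7a1 encodes cholesterol 7-alpha-hydroxylase, the rate-limiting enzyme of the classic pathway of bile acid synthesis. Bile acids repress it through the receptor FXR, in liver by way of SHP and from the intestine by way of the hormone FGF15. It had 740 reads (138 CPM, interval 128 to 148) in the healthy, 494 reads (153 CPM, 140 to 167) in the saline and 197 reads (59.3 CPM, 51.3 to 68.2) in the etanercept library. The healthy and saline intervals overlapped, and the etanercept library lay below both. Cyp7a1 was 2.57-fold lower in etanercept than in saline (2.18 to 3.05) and 2.32-fold lower than in healthy (1.98 to 2.73), the second interval reaching just under the 2-fold limit used for calls. The saline to healthy ratio was 1.11 with TMM (0.987 to 1.24). It was larger by total gene reads, with a log2 fold of 0.60 in place of 0.15. Its share of gene reads was 0.0123% in the healthy, 0.0187% in the saline and 0.00541% in the etanercept library.

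**Figure D1:**
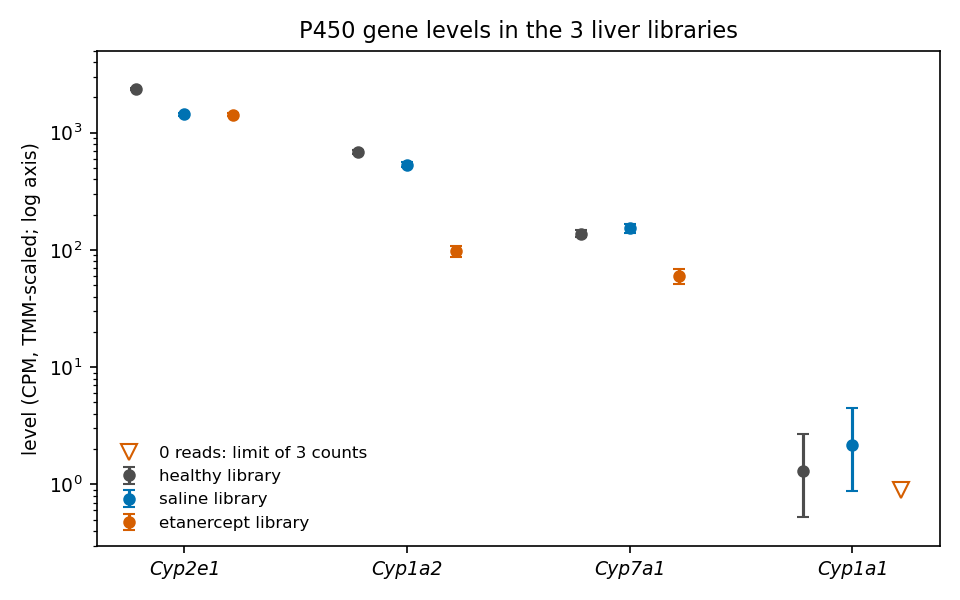
Levels of the 4 genes in CPM after TMM scaling, on a log axis, in the healthy (grey), saline (blue) and etanercept (orange) libraries; bars are 95% Poisson intervals, and the open triangle is the limit set by 3 counts where no read was found. Cyp2e1 is at 1442 and 1424 CPM in the saline and etanercept libraries, whereas Cyp1a2 goes from 534 to 97.6 CPM and Cyp7a1 from 153 to 59.3 CPM.

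Each gene's fold was set beside those of all genes tested, those with at least 5 CPM in the higher library; Cyp1a1 did not reach this level, so 3 of the 4 genes were tested. A gene was called when its fold was at least 2 in either direction. Between saline and healthy 0 of the 3 were called, where 9.66% of 9755 genes tested were called lower and 9.32% higher. Etanercept against saline gave 2 of the 3 as lower, Cyp1a2 and Cyp7a1, and 0 as higher, where 19.2% of 9991 genes were lower and 18.3% higher. Against healthy the same 2 of 3 were lower and 0 higher, where 24% of 10069 genes were lower and 21.9% higher. In the class of 1365 genes averaging 100 CPM or more, which holds all 3 and was chosen after seeing the data, 14.5% were lower in etanercept against saline and 29.3% in etanercept against healthy.

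The median log2 fold of the 3 genes was -0.36 in saline against healthy, -1.36 in etanercept against saline and -1.21 in etanercept against healthy. Over all genes tested the medians were -0.07, 0.00 and -0.04. In the class averaging 100 CPM or more, chosen after seeing the data, they were -0.32, 0.07 and -0.24. The median of the 3 genes in saline against healthy was thus close to that of this class. The first 2 comparisons share the saline library, the last 2 share the etanercept library, and the first and last share the healthy library. With 3 genes, these counts and medians describe the genes and nothing wider.

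Cyp1a2 was near the lower end of all genes in etanercept against saline. Its fold was at or above that of 440 of the 9991 genes tested (4.40%), itself included. For Cyp7a1 the number was 1303 (13.04%), and for Cyp2e1 4927 (49.3%), close to the middle. In saline against healthy, by contrast, Cyp2e1 was the lowest of the 3, with 17.4% of genes at or below it, against 32.0% for Cyp1a2 and 62.8% for Cyp7a1.

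**Figure D2:**
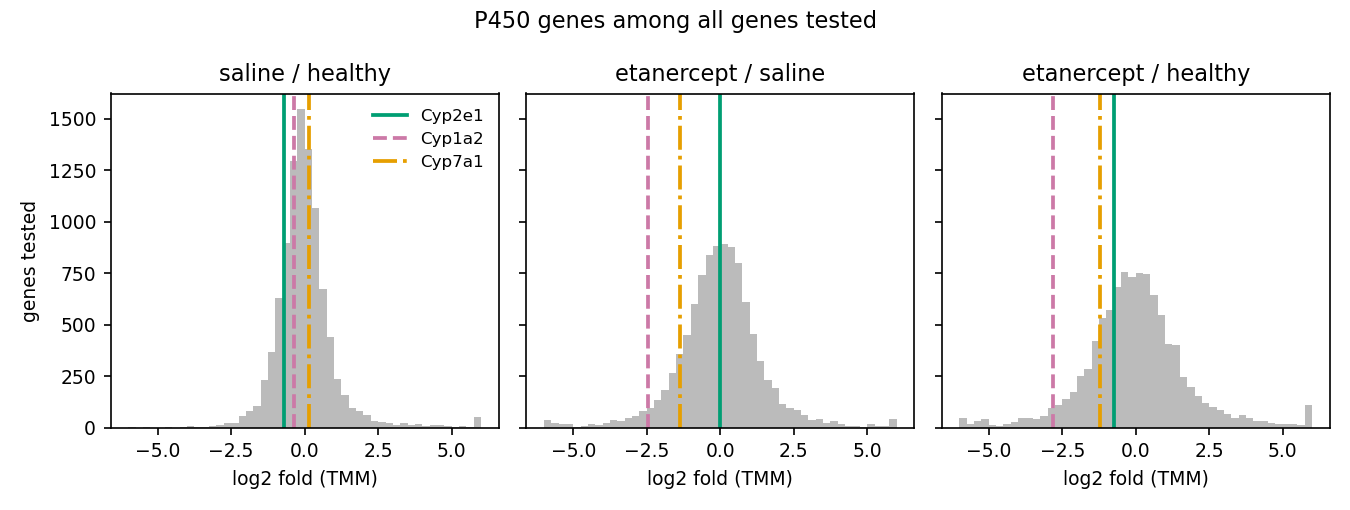
Number of genes tested (vertical axis) by log2 fold with TMM scaling (horizontal axis) in each of the 3 comparisons, with folds past 6 in either direction drawn in the end bins; vertical lines mark Cyp2e1 (solid), Cyp1a2 (dashed) and Cyp7a1 (dash-dotted). In etanercept against saline Cyp2e1 lies at -0.02, near the median of all genes, while Cyp7a1 lies at -1.36 and Cyp1a2 at -2.45.

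Ratios between members within a library were compared next, because scaling and gene length cancel out of their change. For every 100 reads of Cyp2e1 there were 29.2 reads of Cyp1a2 in the healthy library (interval 28.1 to 30.3), 37.0 in the saline library (35.0 to 39.1) and 6.85 in the etanercept library (6.11 to 7.67). Relative to Cyp2e1, Cyp1a2 was 1.27-fold higher in saline than in healthy (1.19 to 1.36), and relative to the same gene it was 5.39-fold lower in etanercept than in saline (4.76 to 6.14). The direction thus changed between the comparisons, whatever the scaling, though both comparisons share the saline library.

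Cyp7a1 followed the same course against Cyp2e1 with a smaller drop. It had 5.86 reads per 100 of Cyp2e1 in the healthy library (5.43 to 6.31), 10.6 in the saline library (9.63 to 11.6) and 4.17 in the etanercept library (3.60 to 4.81). The bile acid gene was 1.81-fold higher relative to Cyp2e1 in saline than in healthy (1.60 to 2.04) and 2.54-fold lower in etanercept than in saline (2.14 to 3.03).

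Cyp1a2 and Cyp7a1 also parted from each other. Reads of Cyp7a1 per 100 of Cyp1a2 numbered 20.1 in the healthy, 28.6 in the saline and 60.8 in the etanercept library, with intervals of 18.5 to 21.7, 25.8 to 31.6 and 50.7 to 72.8. Relative to Cyp7a1, Cyp1a2 was 2.13-fold lower in etanercept than in saline (1.72 to 2.62) and 3.03-fold lower than in healthy (2.48 to 3.69). Against Cyp1a1 no ratio to Cyp1a2 or Cyp7a1 was resolved in any of the 3 comparisons, since all those intervals span 1. Relative to Cyp2e1, the interval for Cyp1a1 spanned 1 except in etanercept against saline, where its upper bound was 0.686.

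**Figure D3:**
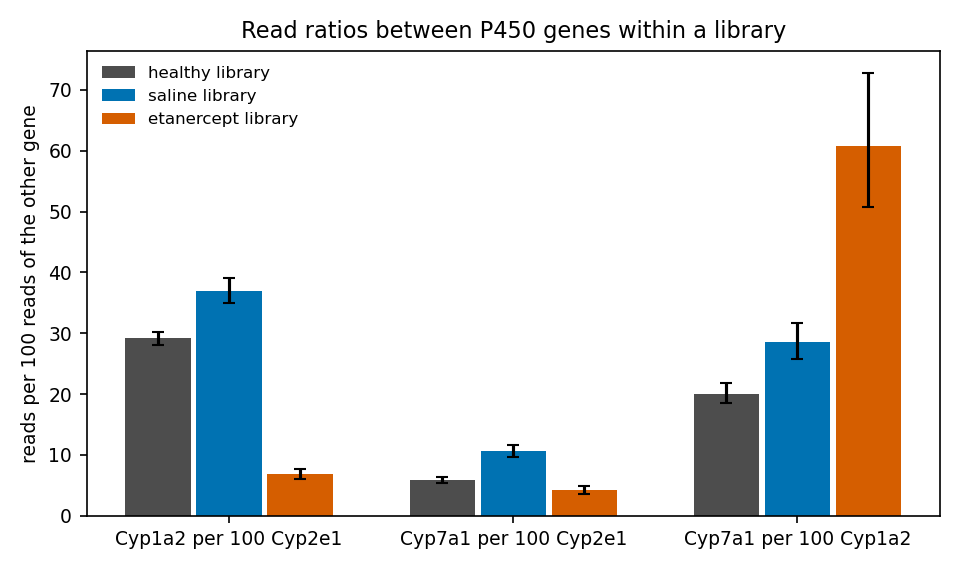
Reads of one P450 gene per 100 reads of another in the same library (vertical axis, starting at 0), for 3 pairs of genes in the healthy, saline and etanercept libraries; error bars are exact 95% binomial (Clopper-Pearson) intervals. Cyp1a2 per 100 Cyp2e1 is 29.2, 37.0 and 6.85, and Cyp7a1 per 100 Cyp1a2 is 20.1, 28.6 and 60.8.

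Within each comparison, the order of the folds of the 3 abundant genes was therefore the same under every scaling, but their distance from no change was not. In etanercept against saline, Cyp1a2 and Cyp7a1 stayed at least 2-fold lower under all 5 other scalings tried, with log2 folds of -4.77 to -2.42 for Cyp1a2 and -3.68 to -1.34 for Cyp7a1. Cyp2e1 ranged from -2.33, when libraries were scaled by all uniquely aligned reads, to 0.01. The share of all genes called lower in this comparison was 31.6% by total gene reads and 90.4% by all uniquely aligned reads, so a call under the latter tells little about any one gene. Against healthy, where Cyp1a2 and Cyp7a1 were likewise at least 2-fold lower under all 5, these shares were 23.2% and 81%. In saline against healthy, Cyp2e1 was lower under every scaling (-0.71 to -0.26), Cyp7a1 was higher under every scaling (0.14 to 0.60), and Cyp1a2 ran from -0.37 to 0.087.

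**Figure D4:**
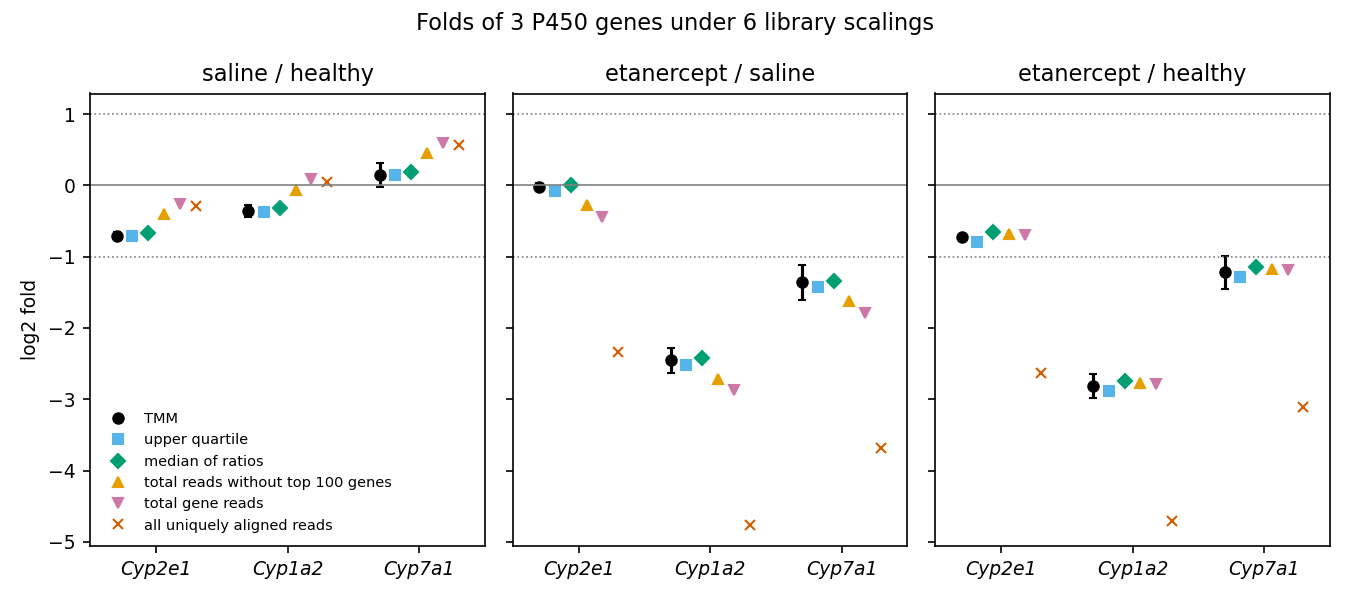
Log2 fold (vertical axis) of Cyp2e1, Cyp1a2 and Cyp7a1 in the 3 comparisons under TMM (black, with 95% counting intervals) and 5 other library scalings; dotted lines mark a 2-fold difference. Cyp1a2 and Cyp7a1 lie below the lower dotted line under each scaling in both comparisons of the etanercept library, while Cyp2e1 passes it only when all uniquely aligned reads are used.

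Genes of similar pattern were sought by the distance between pairs of log2 folds, saline and etanercept each against healthy, among the 10346 other genes with at least 5 CPM in their highest library. Within a distance of 0.25 lay 253 genes for Cyp2e1 (2.45%), 172 for Cyp7a1 (1.66%) and 45 for Cyp1a2 (0.435%). None of these 3 members lay within that distance of another. The nearest gene to Cyp2e1 was ENSRNOG00000029614, with 28 reads in healthy, 10 in saline and 10 in etanercept liver, and the nearest to Cyp1a2 was ENSRNOG00000016015, with 51, 24 and 4 reads in the same order. At such low counts their likeness is itself within counting error.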

How the data were processed

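The authors deposited raw read counts per Ensembl rat gene, 1 file per library, with 5 summary rows that name no gene. Those rows entered no gene total. Shares are given with the results only for the uniquely aligned reads that were left out. Entries for reads aligned to several places numbered 23930072 in the healthy, 14151091 in the saline and 36628956 in the etanercept library. The part of these entries in the differences between libraries was not tested. The submitters' processing notes name TopHat2 2.0.13 with HTSeq 0.6.1. Build, annotation and strand setting: not given in the sources used here, so antisense reads may be included. Per the labels' protocols, ribosomal RNA was depleted and libraries were made with an Ion Torrent kit.

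CPM were computed with TMM (edgeR 4.0.16, R 4.3.3; factors 0.896, 1.22 and 0.912 for healthy, saline and etanercept). Folds use a pseudocount of 0.5. Intervals are Poisson for levels, Clopper-Pearson for shares and folds, and exact conditional for ratios between genes (scipy 1.17.1). The genes named are the 4 members and the nearest genes by pattern to Cyp2e1 and Cyp1a2. Lists of other P450, AHR, bile acid, regulator and cell type marker genes were not scored, since identifiers could not be joined to names; the labelled tissue was therefore not checked by markers. Members, lists and tests were chosen with earlier results of these data known. Other scalings, filters, thresholds and pseudocounts were tried, with DESeq2 1.42.0 for size factors.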

Additional observations from a re-analysis of the deposited data

Results flagged for a closer look

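Reads left out of the gene counts took a larger share of uniquely aligned reads in both hepatectomy libraries than in the healthy library. The share in no gene was 21.7% after saline and 77.4% after etanercept, where healthy liver had 19.9%. The share in more than 1 gene was 0.871% after saline and 1.69% after etanercept, where healthy liver had 0.729%.

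Against healthy, Cyp7a1 and Cyp1a1 had opposite signs in the saline and etanercept libraries, and the difference was not tested. The log2 fold of Cyp7a1 was 0.15 in saline and -1.21 in etanercept. Cyp1a1 had a log2 fold of 0.73 in saline, from 7 reads in each library, and no read in the etanercept library. With TMM, the sign in saline was resolved for neither gene. The counting intervals of the saline to healthy ratio span 1, at 0.987 to 1.24 for Cyp7a1 and 0.497 to 5.55 for Cyp1a1. For Cyp7a1 this depended on the scaling. As a share of gene reads, its intervals were 0.0115 to 0.0133% in healthy and 0.0171 to 0.0204% in saline, which do not overlap. For Cyp1a1 the interval of etanercept to healthy, up to 1.12, spans 1 as well.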

How the results depend on the processing

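No paired analysis was possible because each group is 1 library. All 18 ratios between members stayed within their counting intervals with a pseudocount of 1, as did every fold of a member with that pseudocount and, where both libraries had reads, with none. For Cyp1a1 in the etanercept comparisons these intervals are open-ended, so staying within them says little. There the log2 ratio of Cyp1a2 to Cyp1a1 against healthy went from 0.40 to -0.50. The log2 fold of Cyp1a1 in etanercept over saline went from -3.94 to -3.04. Of 82 alternative values for the folds, 58 stayed within the counting interval, and none of the called folds changed sign. Scaling moved all folds of a comparison together: total gene reads shifted log2 folds by 0.45 for saline over healthy, -0.42 for etanercept over saline and 0.03 for etanercept over healthy. Depth limits Cyp1a1 most, at 7 reads or fewer.

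With total gene reads, log2 folds of saline over healthy were -0.26 for Cyp2e1, 0.087 for Cyp1a2 and 0.60 for Cyp7a1, and of etanercept over saline -0.44, -2.87 and -1.78. Leaving the 100 genes of highest share out of the totals gave -0.40, -0.059 and 0.45, and -0.28, -2.71 and -1.62. All uniquely aligned reads gave -0.29, 0.052 and 0.56, then -2.33, -4.77 and -3.68, and in etanercept against healthy -2.63, -4.71 and -3.11. For Cyp2e1, upper-quartile scaling gave -0.082 in etanercept against saline and -0.80 in etanercept against healthy, where DESeq2 size factors gave -0.66. The cause was not tested beyond the change of scale.

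A threshold of 3-fold left 1 member, Cyp1a2, lower in etanercept against saline and against healthy. Among all genes it left 475 higher and 302 lower for saline over healthy, 961 and 1001 for etanercept over saline, and 1311 and 1367 for etanercept over healthy. At least 20 CPM left 368 and 582, 1180 and 905, and 1350 and 1361, because fewer genes were tested. With no filter the numbers were 2701 and 2426, 3185 and 4893, and 3464 and 4882. A mean of at least 100 CPM, chosen after seeing the data, left 46 and 252, 280 and 198, and 258 and 400 of 1365 genes, with Cyp1a2 and Cyp7a1 still the members called. Total gene reads gave 1987 higher and 363 lower for saline over healthy and 1092 and 3204 for etanercept over saline; the higher share of calls was then 84.6% and 25.4%, against 49.1% and 48.8% with TMM. Without the 100 genes of highest share, 1539 were higher and 489 lower in saline against healthy. All uniquely aligned reads gave 2166 and 470, 145 and 9567, and 376 and 8049, with Cyp2e1 then also called lower in both comparisons of the etanercept library.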
